A study of Rattus norvegicus with 8 samples.

Results

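The genes described here encode the 8 subunits of TRiC, the cytosolic chaperonin also called CCT, in the orbitofrontal cortex of rats. They were taken by symbol among the protein-coding rows of the count table, as Tcp1, Cct2, Cct3, Cct4, Cct5, Cct6a, Cct7 and Cct8. Each symbol had 1 such row, which gives 8 of the 34298 rows of the table, and all 8 passed the filter on low counts that left 16573 genes for testing. The animals were male Sprague-Dawley rats of 8 weeks on arrival, and the strain is outbred. In 4 rats, called circNrxn3 siRNA replicates 1, 2, 3 and 4, the siRNA was aimed at the backsplice junction of circNrxn3, the circular RNA of the neurexin 3 gene. In the other 4, called scrambled siRNA replicates 1, 3, 4 and 5, it was a scrambled control. Both groups received 1 µl with 5 ng of siRNA in the transfection reagent JetPEI, infused into the orbitofrontal cortex, and the tissue was taken 7 days later. The study asks which cortical mRNAs differ after the infusion aimed at the circle. Poly-T selected libraries hold mainly linear mRNA, so the level of the circle itself was not measured here, and whether it fell in any animal is not known.

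TRiC is built of stacked rings in which each of the 8 subunits takes 1 fixed place per ring. It encloses newly made proteins in a cavity and folds them by hydrolysing ATP. Actin, tubulin and many proteins with WD40 repeats depend on it, so neurons need it for the cytoskeleton of axons and dendrites. Prefoldin hands unfolded actin and tubulin to it, and phosducin-like proteins act as its cofactors. Tcp1 encodes the alpha subunit, Cct2 beta, Cct3 gamma, Cct4 delta, Cct5 epsilon, Cct6a zeta, Cct7 eta and Cct8 theta.

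The siRNA against the circle is shown because it is the agent compared, with bases 2 to 8 of the antisense strand, the seed, in capitals.
circNrxn3 siRNA, sense strand: uccaaaggcuagacaggaauu
circNrxn3 siRNA, antisense strand: uUCCUGUCuagccuuuggauu
The promoters of Cct2, the subunit whose level varied most, Cct5, the steadiest, and Cct4, whose promoter holds the most heat shock dimers, are shown for comparison. They are RefSeq sequences of the GRCr8 build, from 250 bases before to 50 bases after the gene start, read 5′ to 3′ on the strand of the gene. Capitals mark matches on either strand to the CCAAT box, to the GC box with the letters GGGCGG, to the cyclic AMP response element TGACGTCA, and to the heat shock dimers GAANNTTC and TTCNNGAA.
Cct2 promoter (chr7:54591356-54591655, minus strand): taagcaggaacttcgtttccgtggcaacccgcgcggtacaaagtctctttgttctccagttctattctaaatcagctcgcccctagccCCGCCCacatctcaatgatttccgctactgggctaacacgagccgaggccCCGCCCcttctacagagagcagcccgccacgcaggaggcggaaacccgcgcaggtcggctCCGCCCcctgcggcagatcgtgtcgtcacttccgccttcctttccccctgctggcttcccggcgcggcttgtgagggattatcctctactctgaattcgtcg
Cct5 promoter (chr2:84313724-84314023, minus strand): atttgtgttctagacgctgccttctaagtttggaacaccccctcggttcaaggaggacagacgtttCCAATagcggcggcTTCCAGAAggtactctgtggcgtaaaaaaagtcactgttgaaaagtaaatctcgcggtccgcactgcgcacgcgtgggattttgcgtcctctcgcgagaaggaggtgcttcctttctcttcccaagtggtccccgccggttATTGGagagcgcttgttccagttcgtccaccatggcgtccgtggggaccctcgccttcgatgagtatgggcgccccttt
Cct4 promoter (chr14:101192807-101193106, plus strand): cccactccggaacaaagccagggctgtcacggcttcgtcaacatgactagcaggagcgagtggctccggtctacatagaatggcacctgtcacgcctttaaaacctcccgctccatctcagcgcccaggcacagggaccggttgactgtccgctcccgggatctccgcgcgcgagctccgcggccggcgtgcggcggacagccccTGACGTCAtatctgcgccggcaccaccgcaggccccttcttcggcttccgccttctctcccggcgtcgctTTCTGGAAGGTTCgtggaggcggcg

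All 8 promoters were found in the RefSeq table by symbol, and their GC content ran from 52.3% in Cct8 to 66% in Cct4 and Cct7, against a median of 51.7% over 33469 rat promoters of the same length. The GC box GGGCGG, in either orientation, was present in 6 of 8 promoters and in 33.1% of all promoters. The Cct2 promoter held 3 GC boxes and none of the other motifs searched. The CCAAT box, in either orientation, was present in 5 of 8, those of Cct3, Cct5, Cct6a, Cct7 and Cct8, and in 37.5% of all promoters. Heat shock factors bind inverted repeats of GAA. Of their dimers, TTCNNGAA was found in the promoters of Cct4, Cct5 and Cct6a and in 8.77% of all promoters, and GAANNTTC in that of Cct4 and in 8.59% of all promoters. The dimers of Cct4 overlap, sharing GAA. TGACGTCA, the cyclic AMP response element, was found in Cct4 alone of the 8 and in 1.83% of all promoters. These motifs read the same on both strands. TATAAA, in either orientation, was found in 0 of 8 and in 14.2% of all promoters. A match is a description of letters in this window.

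In the rn6 gene models of the files, 5 of the 8 subunit genes lie head to head with a gene on the opposite strand that starts within 1000 bp of them. Of the 16573 tested genes, 10.1% have such a neighbour. Cct7 starts 94 bp from Pradc1, Cct5 157 bp from Fam173b, Cct3 306 bp from Tsacc and Tcp1 371 bp from Mrpl18, which encodes a mitochondrial ribosomal protein. Cct6a starts 192 bp from a long noncoding RNA gene. Tcp1 overlaps the opposite-strand gene RGD1562948 by 606 bp, and Cct8 overlaps Usp16 by 170 bp. The sources used here do not state whether the counting used strand, so reads from these overlaps may not be told apart. RGD1562948 had 1583 reads in all 8 libraries together, against 17922 for Tcp1, and Usp16 had 4644, against 38185 for Cct8. Cct2 and Cct4 have no other gene model within 1000 bp. Processed pseudogenes can share reads with their parent gene. RefSeq names 14 pseudogenes after Cct6a, 4 after Cct3, 3 each after Cct7 and Cct8, 1 each after Cct5 and Tcp1, and 0 after Cct2 and Cct4. How many reads they share was not measured.

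The libraries held 27589883 to 35221782 counts, and each subunit had between 1856 and 8355 counts in a library, so that counting error alone is at most 2.32% of a value. Markers of broad cell types were summed by library, and they do not test the brain region named by the label. Summed neuron markers were at 6410 to 6950 CPM (counts divided by scaled library size) in circNrxn3 siRNA libraries and 6300 to 6710 CPM in scrambled libraries. The neuron markers with the smallest p were Snap25, with a log2 fold change of 0.17, and Gad1, with 0.11. Of the 6 neuron markers 4 were above 0 and 2 below, Rbfox3 at −0.15 and Slc17a7 at −0.13. The group ranges of the summed astrocyte, microglia and endothelial markers overlapped. Astrocyte markers were at 967 to 1310 CPM in circNrxn3 siRNA libraries, against 1170 to 1540 CPM in scrambled libraries, and 4 of 5 of them had log2 fold changes below 0. Among them Gfap averaged 428 CPM in circNrxn3 siRNA and 576 CPM in scrambled libraries, a log2 difference of −0.43 with an unadjusted edgeR p of 0.0278 (adjusted p = 0.833), and Aldh1l1 was at −0.28. Microglia markers were at 134 to 213 CPM in circNrxn3 siRNA libraries, against 135 to 206 CPM in scrambled libraries. Of these 5 markers 3 had log2 fold changes above 0 and 2 below, with a median of 0.05. P2ry12 was at 0.49 ± 0.39 (SE) and Cx3cr1 at 0.35 ± 0.26, while Aif1 was at −0.06 and Csf1r at −0.03. The endothelial markers Flt1 and Cdh5 were at 0.28 and 0.12, and their sum was 36.0 to 53.1 CPM in circNrxn3 siRNA libraries, against 29.7 to 43.4 CPM in scrambled libraries.

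Red blood cell markers differed most between the groups among the marker lists given here. Their sum was 164, 297, 315 and 229 CPM in circNrxn3 siRNA replicates 1, 2, 3 and 4, against 481, 999, 282 and 429 CPM in scrambled replicates 1, 3, 4 and 5. All 4 of these markers had log2 fold changes below 0, with a median of −1.13, and unadjusted edgeR p from 0.00232 to 0.0306, where 5.59% of all tested genes had a p under 0.05. Hbb-b1, at −0.84, and Alas2, at −1.23, did not overlap between the groups, as 3.48% of all tested genes did not. Hbb was at −1.14, and none of the 4 passed after adjustment (edgeR adjusted p = 0.833 each). The part of any cell type marker in the subunit values was not tested. These are bulk samples, in which fewer cells of a type and less RNA per cell cannot be told apart.

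All 8 subunits were well expressed in the cortex, and their levels per length spanned a factor below 3. The authors' FPKM, scaled by gene model length and library size, allow levels of different genes to be set side by side. Over the 8 libraries Cct7 had the highest level, 92.6 ± 5.93 FPKM (SD, n = 8), followed by Cct5 at 82.8 ± 2.14 FPKM and Cct3 at 66.9 ± 3.77 FPKM. Cct8 at 59.6 ± 3.18 FPKM, Cct6a at 58.6 ± 2.93 FPKM and Cct4 at 54.0 ± 2.55 FPKM formed the middle of the order. Cct2 at 49.0 ± 8.98 FPKM and Tcp1 at 33.7 ± 2.54 FPKM stood at its low end (SD, n = 8 each). Even Tcp1 was above 83.9% of the tested genes in mean FPKM, and Cct7 was above 93.8%. The 8 subunits share 1 place each in a ring of the complex, and their FPKM values were not equal.

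Neighbours in this order were compared within libraries, over both groups, with a two-sided exact paired permutation test and Benjamini-Hochberg adjustment over the 7 pairs. The smallest p this test allows with 8 libraries is 0.00781. It asks only whether a ratio differed from 1 over the libraries, by the direction and size of its log2 values. A bias of a gene that is alike in every library would pass it too. Such a bias, as from gene model length or reads shared with pseudogenes, was not tested. In 5 of the 7 pairs the higher gene was higher in 8 of 8 libraries, with an adjusted exact permutation p of 0.0109. Cct7 was 1.12-fold above Cct5, Cct5 1.24-fold above Cct3, Cct3 1.12-fold above Cct8, Cct6a 1.09-fold above Cct4 and Cct2 1.44-fold above Tcp1. Cct8 and Cct6a, at a ratio of 1.02, were in this order in 5 of 8 libraries and did not pass (adjusted exact permutation p = 0.305). Cct4 was above Cct2 in 5 of 8 libraries, and this pair did not pass either (adjusted exact permutation p = 0.128). The 3 libraries in which Cct2 was the higher of that pair were circNrxn3 siRNA replicates 2, 3 and 4.

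**Figure D1:**
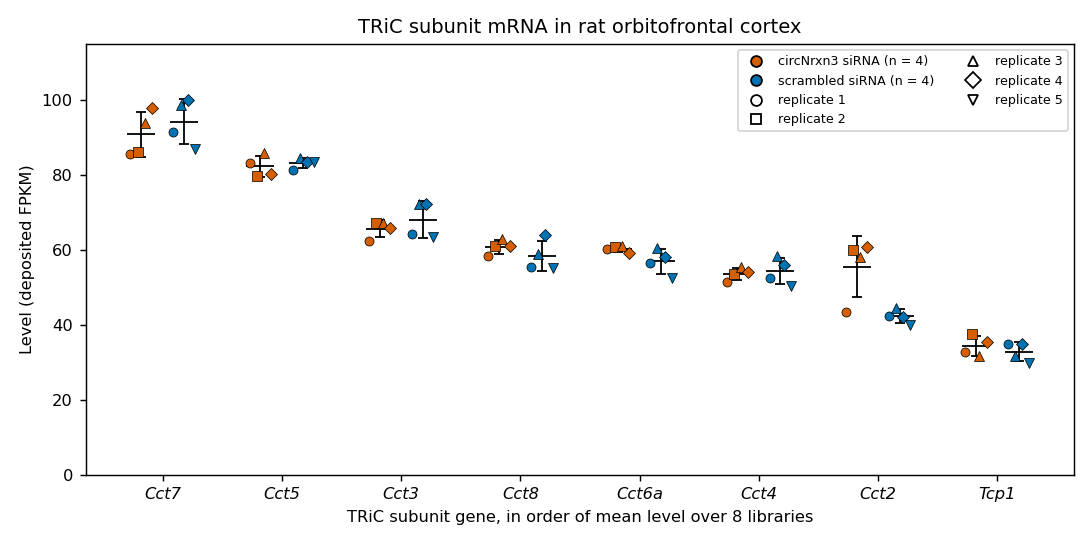
Deposited FPKM (vertical axis) of the 8 TRiC subunit genes (horizontal axis, ordered by mean level) in each library. Points are animals, shaped by replicate number, with circNrxn3 siRNA in orange on the left and scrambled siRNA in blue on the right of each gene, and black bars give mean ± SD (n = 4). Cct2 in circNrxn3 siRNA replicate 1, at 43.4 FPKM, lies with the scrambled libraries, and the other 3 circNrxn3 siRNA libraries lie at 58.2 to 60.7 FPKM.

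For 7 of the 8 subunits the siRNA groups lay within 7% of each other in the fit, and only Cct2 had a larger difference. The family was selected on differences between the siRNA groups seen earlier in these same counts, so the fold changes are given as a description. Cct2 (ENSRNOG00000021317, chromosome 7, 60109974 to 60122805, rn6) encodes the beta subunit, which in human cells also serves as an autophagy receptor for protein aggregates. It was at 43.4, 60.0, 58.2 and 60.7 FPKM in circNrxn3 siRNA replicates 1, 2, 3 and 4, against 42.5, 44.5, 42.2 and 40.0 FPKM in scrambled replicates 1, 3, 4 and 5. The values of circNrxn3 siRNA replicates 2, 3 and 4 were above every scrambled value, and replicate 1 lay inside the scrambled range. In counts scaled with TMM factors Cct2 was at 112 ± 16.2 CPM in circNrxn3 siRNA and 84.6 ± 3.57 CPM in scrambled libraries (SD, n = 4 each). The fitted log2 ratio of the groups was 0.41 ± 0.10 (SE), or 1.32-fold, and it did not pass over all genes (edgeR adjusted p = 0.833). It stood at place 31 of the 16573 tested genes by p.

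Of the 8 subunits 0 passed the adjusted threshold of 0.05 in edgeR's quasi-likelihood test, where 0 of 16573 genes (0%) passed. DESeq2 and limma-voom also called 0 of the 8, where over all genes DESeq2 called 8 and limma-voom 0. Cct2 alone of the 8 had an unadjusted p under 0.05 in each of these tools, with circNrxn3 siRNA higher. In edgeR 5.59% of all tested genes had such a p, 2.38% with circNrxn3 siRNA higher and 3.2% with it lower. For DESeq2 and limma-voom this share is not given here. CPM of the groups overlapped for 8 of 8 subunits, while 3.48% of all tested genes did not overlap, 1.82% with circNrxn3 siRNA above and 1.65% with it below. Without circNrxn3 siRNA replicate 1, the log2 fold change of Cct2 was 0.51 and its adjusted p 0.523 (edgeR), which put it at place 1 of the genes by p. Without circNrxn3 siRNA replicate 2, 3 or 4 it stood at place 89, 257 or 108, and without 1 scrambled library at places 44 to 136. With a block for replicate number, where only numbers 1, 3 and 4 occur in both groups, it stood at place 669. The median log2 fold change of the 8 was 0.03, against 0.0066 over all tested genes, and 4 of 8 were above 0, against 51.3% of all genes.

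The other 7 subunits had log2 fold changes from −0.04 to 0.10, with a median of −0.0034 and 3 above 0. Cct6a (ENSRNOG00000000923, chromosome 12, 30491586 to 30501813), the zeta subunit whose close paralogue Cct6b is mainly testicular, had the largest of these, 0.10 ± 0.06 (SE; edgeR adjusted p = 0.834). It was at 60.3, 60.7, 61.2 and 59.2 FPKM in circNrxn3 siRNA replicates 1, 2, 3 and 4, against 56.6, 60.6, 58.2 and 52.5 FPKM in scrambled replicates 1, 3, 4 and 5. The groups overlapped through scrambled replicate 3. Tcp1 (ENSRNOG00000014160, chromosome 1, 48025663 to 48033396), the alpha subunit after which the complex is named, was at 32.9, 37.7, 31.8 and 35.5 FPKM in circNrxn3 siRNA replicates 1, 2, 3 and 4, against 35.0, 31.6, 35.0 and 29.9 FPKM in scrambled replicates 1, 3, 4 and 5. Its groups overlapped over most of their range, and its log2 ratio was 0.08 ± 0.08 (SE). Cct8 (ENSRNOG00000001592, chromosome 11, 27130172 to 27141881) averaged 60.9 ± 1.93 FPKM in circNrxn3 siRNA and 58.4 ± 3.99 FPKM in scrambled libraries (SD, n = 4 each). Its fitted log2 ratio was 0.07 ± 0.07 (SE).

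Cct7 (ENSRNOG00000015630, chromosome 4, 117235023 to 117252265), the subunit with the highest level, was at 85.6, 86.1, 93.9 and 97.9 FPKM in circNrxn3 siRNA replicates 1, 2, 3 and 4, against 91.4, 98.7, 100 and 87.1 FPKM in scrambled replicates 1, 3, 4 and 5. Its groups overlapped, with the lowest values in circNrxn3 siRNA replicates 1 and 2. Cct3 (ENSRNOG00000019090, chromosome 2, 187668970 to 187693602) averaged 65.6 ± 2.27 FPKM in circNrxn3 siRNA and 68.1 ± 4.89 FPKM in scrambled libraries (SD, n = 4 each). Cct7 and Cct3 each had a fitted log2 ratio of −0.04 ± 0.07 (SE). Cct4 (ENSRNOG00000009642, chromosome 14, 107767392 to 107780270), in which a missense change causes a hereditary sensory neuropathy of rats, averaged 53.7 ± 1.64 FPKM in circNrxn3 siRNA and 54.4 ± 3.49 FPKM in scrambled libraries (SD, n = 4 each). Cct5 (ENSRNOG00000011632, chromosome 2, 84667633 to 84678790), whose human gene is likewise mutated in a sensory neuropathy, was at 83.1, 79.7, 86.0 and 80.4 FPKM in circNrxn3 siRNA replicates 1, 2, 3 and 4, against 81.3, 84.5, 83.6 and 83.5 FPKM in scrambled replicates 1, 3, 4 and 5. The scrambled values of Cct5 lay inside its circNrxn3 siRNA range. Its within-group SD of log2 CPM was 0.0375, against a median of 0.235 over all tested genes, and 0.211% of the tested genes had a smaller one. How far its read depth sets this rank was not tested. Cct2 had the widest within-group SD of the 8, 0.166.

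Because the subunits of a library share its depth and scaling, Cct2 was also set against the geometric mean of the other 7 in the same library. This ratio was 0.730, 0.971, 0.933 and 0.976 in circNrxn3 siRNA replicates 1, 2, 3 and 4, against 0.710, 0.706, 0.659 and 0.698 in scrambled replicates 1, 3, 4 and 5. All 4 circNrxn3 siRNA values were above all 4 scrambled values, with replicate 1 by a small margin. The ratio was chosen after the values of Cct2 were seen and is a description. The geometric mean of the other 7 was 61.5 ± 1.33 FPKM in circNrxn3 siRNA and 61.1 ± 3.08 FPKM in scrambled libraries (SD, n = 4 each). Cct2 made up 9.09% to 11.9% of the summed FPKM of the 8 subunits in circNrxn3 siRNA libraries and 8.25% to 8.87% in scrambled libraries. It ranked 7 of 8 subunits in every scrambled library and in circNrxn3 siRNA replicate 1, 6 in replicates 2 and 3 and 5 in replicate 4. Each of the other 7 was set against the geometric mean of the remaining 6 without Cct2, and for each of them the ratios of the groups overlapped. From the lowest to the highest library these ratios spanned 1.08-fold for Cct4 to 1.26-fold for Tcp1, and the ratio of Cct2 spanned 1.48-fold.

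**Figure D2:**
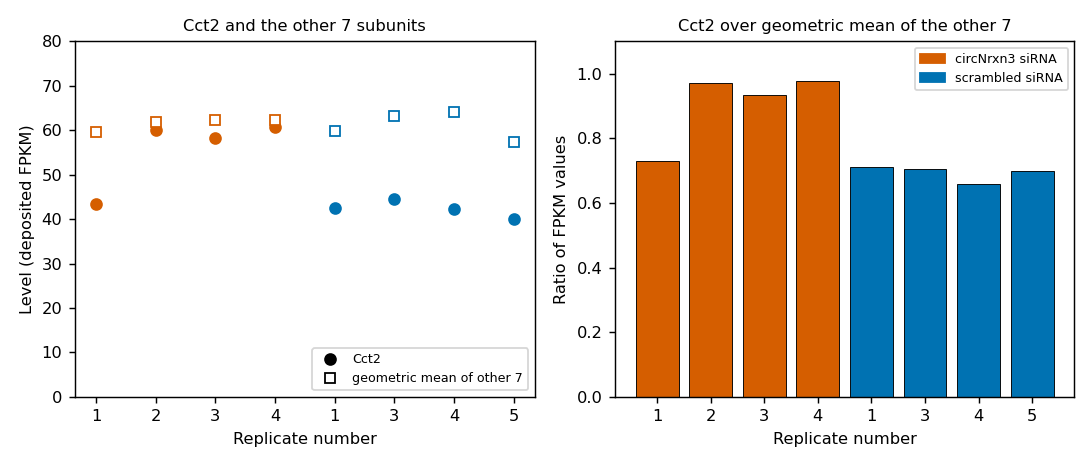
Left, deposited FPKM of Cct2 (filled circles) and the geometric mean of the other 7 subunits (open squares) in each library. Right, the ratio of the same values per library as bars. The horizontal axes give replicate numbers, with circNrxn3 siRNA in orange and scrambled siRNA in blue; the ratio is 0.933 to 0.976 in circNrxn3 siRNA replicates 2, 3 and 4 and 0.659 to 0.730 in the other 5 libraries.

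The 7 subunits other than Cct2 moved by small amounts between libraries. The mean deviation of their log2 CPM from their own means was between −0.03 and 0.03 in the circNrxn3 siRNA libraries and between −0.10 and 0.05 in the scrambled libraries. Of these 7 subunits, 2, 4, 6 and 5 were above their own mean over the libraries in circNrxn3 siRNA replicates 1, 2, 3 and 4, against 1, 5, 6 and 1 in scrambled replicates 1, 3, 4 and 5. Scrambled replicate 5 had the lowest mean deviation. For likeness to other genes the mean of all 8 subunits was taken, Cct2 included. Pearson's r of each subunit to the mean of the other 7, with group means subtracted, ran from −0.21 for Cct5 and 0.245 for Tcp1 to 0.878 for Cct3. The mean therefore does not stand for every subunit. By Pearson's r over the 8 libraries, with group means subtracted, the protein-coding genes outside the family most like the mean of the subunits were Rraga, which encodes a Rag GTPase of nutrient signalling (r = 0.968), Hyou1, a chaperone of the endoplasmic reticulum (0.958), Sae1, a subunit of the SUMO-activating enzyme (0.958), Arpc2, a subunit of the Arp2/3 complex (0.954), and Vsig10l (0.948). Their Spearman's rho was 0.905, 0.762, 0.881, 0.929 and 0.929 in the same order. Without the 2 libraries farthest from the median, r was 0.917, 0.641, 0.828, 0.927 and 0.711. They are the top 5 of 8596 genes, so their r is high by selection, and no test was made.

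The genes around Cct2 on chromosome 7 were read next, a set chosen after the values of Cct2 were seen. Of 19 other tested genes within 1 Mb, 11 had log2 fold changes above 0 and 8 below, with a median of 0.05. Frs2, which encodes an adaptor of growth factor receptors and lies nearest among those with a named function, was at 31.5, 30.2, 28.2 and 27.6 CPM in circNrxn3 siRNA replicates 1, 2, 3 and 4, against 30.3, 26.6, 27.8 and 26.9 CPM in scrambled replicates 1, 3, 4 and 5. Its highest value was in circNrxn3 siRNA replicate 1, the library in which Cct2 was lowest in its group. Yeats4, a reader of acetylated histones, was at 33.8, 38.6, 41.8 and 35.5 CPM in circNrxn3 siRNA replicates 1, 2, 3 and 4, against 36.3, 36.2, 41.1 and 37.0 CPM in scrambled replicates 1, 3, 4 and 5. Its lowest value of the 8 was in circNrxn3 siRNA replicate 1, and its groups overlapped. Lyc2, at 1.95, and RGD1564883, at −0.935, had an unadjusted p under 0.05 in edgeR, with group means below 3 CPM. Of all tested genes 5.59% had such a p. Lyc2 alone of the 19 did not overlap between the groups, with circNrxn3 siRNA above, as in 1.82% of all tested genes.

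**Figure D3:**
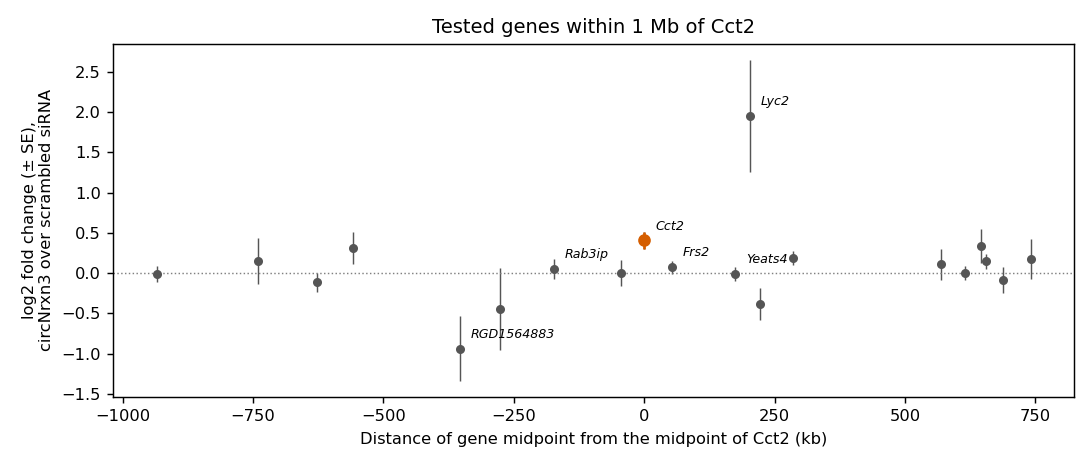
Log2 fold change of circNrxn3 siRNA over scrambled siRNA with its standard error (vertical axis) for the tested genes within 1 Mb of Cct2, by distance of gene midpoints in kb (horizontal axis). Cct2 (orange) is at 0.41, its neighbours Frs2 and Rab3ip are at 0.07 and 0.05, and the widest values belong to Lyc2 and RGD1564883, both with group means below 3 CPM.

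Genes that work with TRiC were described from lists of its partners, other chaperones and clients, in none of which a gene passed the adjusted threshold in edgeR (smallest adjusted p = 0.833, where 0% of all genes passed). All 6 prefoldin subunits had log2 fold changes below 0, where 51.3% of all tested genes were above 0. Their median was −0.14, against 0.0066 over all tested genes. Vbp1, the prefoldin subunit that binds the von Hippel-Lindau protein, was at 121, 117, 149 and 134 CPM in circNrxn3 siRNA replicates 1, 2, 3 and 4, against 131, 181, 156 and 139 CPM in scrambled replicates 1, 3, 4 and 5. Pfdn5 averaged 107 CPM in circNrxn3 siRNA and 120 CPM in scrambled libraries. The groups overlapped for each of the 6, where 3.48% of all tested genes did not overlap. Of the 6, 0 had an unadjusted edgeR p under 0.05, against 5.59% of all tested genes. Prefoldin gene models are short, 384 to 1667 bp, against 1744 to 2521 bp for the TRiC subunits and a median of 2215 bp over tested genes. The mean log2 deviation of genes over 3486 bp minus that of genes under 1372 bp, a length measure of each library, was 0.05 ± 0.09 in circNrxn3 siRNA and −0.05 ± 0.09 in scrambled libraries (SD, n = 4 each). Its part in the prefoldin and TRiC values was not tested. By library it was 0.08, 0.15, −0.05 and 0.0048 in circNrxn3 siRNA replicates 1, 2, 3 and 4, against 0.06, −0.08, −0.15 and −0.01 in scrambled replicates 1, 3, 4 and 5.

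The phosducin-like cofactors had log2 fold changes of 0.35 for Pdcl, 0.08 for Pdcl3 and −0.03 for Txndc9, and their groups overlapped. Among other chaperonins, 3 of 5 tested genes were above 0. The groups overlapped for Mkks, a chaperonin-like gene of Bardet-Biedl syndrome, at −0.13 ± 0.07 (SE), and for Bbs10 at 0.15 ± 0.14. Of 15 tested genes of the cytosolic Hsp70 and Hsp90 system, 10 were above 0, with a median of 0.11. Hspa8 averaged 10.7 CPM in circNrxn3 siRNA and 9.9 CPM in scrambled libraries, and Hsp90aa1 3.21 and 4.53 CPM. Hsp90ab1 averaged 1650 and 1640 CPM in the same order. Whether the rows of Hspa8 and Hsp90aa1 lost reads was not tested. Dnaja1 and Dnaja2, J-domain partners of Hsp70, had the smallest p in that list. Dnaja1 was at 195, 202, 192 and 213 CPM in circNrxn3 siRNA replicates 1, 2, 3 and 4, against 174, 178, 173 and 178 CPM in scrambled replicates 1, 3, 4 and 5. Dnaja2 was at 163, 169, 155 and 163 CPM in circNrxn3 siRNA replicates, against 152, 139, 137 and 142 CPM in scrambled replicates. Each had a fitted log2 ratio of 0.19 ± 0.06 (SE) and did not pass (edgeR adjusted p = 0.833). In this list 3 of 15 genes had circNrxn3 siRNA values all above the scrambled values, as had 1.82% of all tested genes.

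Among the clients, 11 of 13 tubulin rows had log2 fold changes below 0, with a median of −0.08. Tuba1a, the main alpha tubulin of developing neurons, averaged 775 CPM in circNrxn3 siRNA and 868 CPM in scrambled libraries, and its log2 ratio was −0.16 ± 0.10 (SE). A row for Tuba1c had a log2 fold change of 1.41, which follows 29.0 CPM in circNrxn3 siRNA replicate 4 against 3.43 to 5.94 CPM in the other 7 libraries, and 2 rows carry this symbol. Many tubulin genes are near-identical in sequence and can share reads. Of 6 actin and actin-related genes 5 were above 0, with a median of 0.04, where Actr3, of the Arp2/3 complex, had 0.09 and Actr2 0.54 ± 0.56 (SE). The WD40 and other clients had 7 of 14 above 0 and a median of 0.02, with Gnb5, a G protein beta subunit, at 0.17 and Gnb2 at −0.20. Of 5 tested tubulin folding cofactors 4 were below 0, with Tbcb at −0.63 and a level below 3 CPM. Tbce was at 42.4, 44.8, 37.6 and 38.1 CPM in circNrxn3 siRNA replicates 1, 2, 3 and 4, against 35.3, 37.6, 36.3 and 34.6 CPM in scrambled replicates 1, 3, 4 and 5. Before rounding, its circNrxn3 siRNA values were all above the scrambled values, as in 1.82% of all tested genes. Its unadjusted edgeR p was 0.047, where 5.59% of all tested genes had a p under 0.05, and it did not pass (edgeR adjusted p = 0.833).

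**Figure D4:**
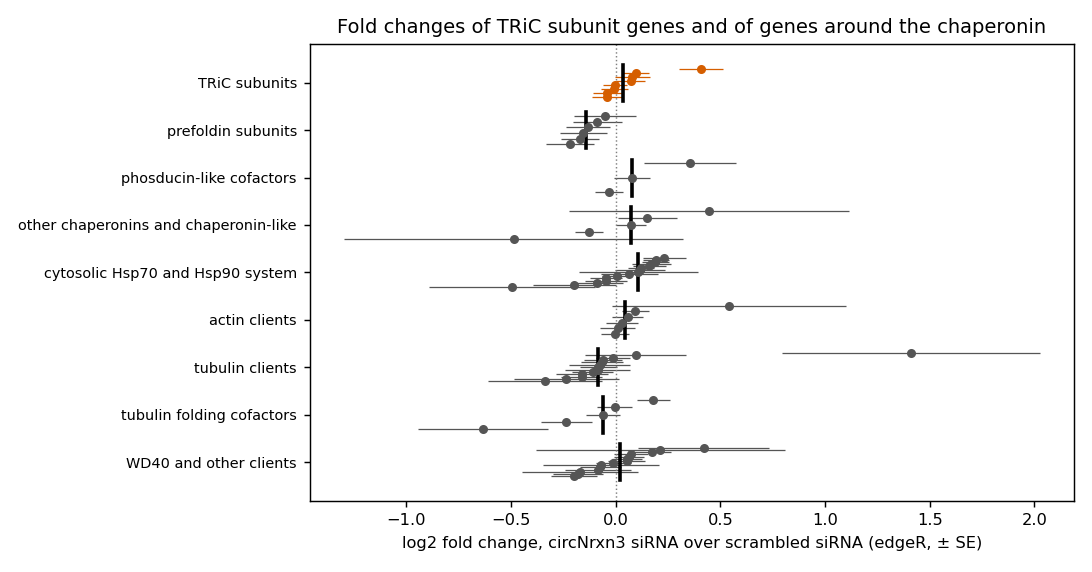
Log2 fold changes of circNrxn3 siRNA over scrambled siRNA (horizontal axis, edgeR, bars are standard errors) for the 8 TRiC subunits in orange and for genes of partner, chaperone and client lists in grey; black lines are list medians. Cct2 lies at 0.41 and the other 7 subunits at −0.04 to 0.10, and the 6 prefoldin subunits all lie below 0.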

How the data were processed

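Messenger RNA of 8 orbitofrontal cortex samples was sequenced from poly-T selected, strand-marked (dUTP) libraries, per the labels' protocols. The authors deposited whole-number read counts per gene and FPKM values, 1 column per sample; tools in the submitters' processing notes are HISAT2 2.0.5, featureCounts 1.5.0-p3, StringTie 1.3.3b and fastp, with the build rn6, and their roles and settings were not given. Recomputed from the counts and gene lengths, the deposited FPKM values used library totals proportional to median-of-ratios size factors. Columns were matched to samples by title. Every one of 12 library pairs within groups differed by more than counting noise (chi-square over its degrees of freedom, 23.2 to 47.4). The labels describe biological replicates, so the tests reflect variation among these animals.

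Counts were tested with edgeR 4.0.16 (R 4.3.3): filterByExpr with a minimum count of 10, TMM scaling, robust quasi-likelihood F test, Benjamini-Hochberg adjustment over 16573 genes, threshold 0.05. Standard errors are log2 ratio over root F. CPM use the TMM factors, and log2 CPM a prior count of 2. The fit was also run on counts simulated with means and dispersions estimated from these data. Such a run cannot show how well the model suits these libraries. Alternatives were other scalings and filters, DESeq2 1.42.0, limma 3.58.1 (voom, and FPKM with pseudocounts of 1 and 0.1), a block and leaving out each replicate.

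The members and lists were chosen with earlier results of these data known. All 8 members are named, and from each other list the 2 genes with the smallest p; genes named beyond this rule, such as Pdcl3 with Txndc9, the genes near Cct2 and the neighbours of promoters, were chosen after their values were seen. The 5 genes most like the subunits were taken from protein-coding genes of at least 10 CPM. Promoters are RefSeq sequences (GRCr8), and coordinates of gene models are those of the files. Hspe1 and Pecam1 were not analysed here, and the lists of cortical neuron, striatal neuron and oligodendrocyte markers are not reported here.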

Additional observations from a re-analysis of the deposited data

Results flagged for a closer look

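Cct2 in circNrxn3 siRNA replicate 1, at 88.0 CPM, stood far from the other 3 libraries of its group, which were at 117 to 122 CPM. The gap was 0.862 of the range of the group, above Dixon's 95% critical value of 0.829 for 4 samples. Of 16 groups of 4 values checked, 8 subunits in each siRNA group, this was the only such gap, and chance flags about 1 in 20 groups. The cause was not tested.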

How the results depend on the processing

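Of the 8 subunits 0 were called in any of the 18 alternatives to the edgeR fit, and the log2 fold change of Cct2 stayed above 0 in all 18, from 0.33 to 0.51, with adjusted p from 0.337 to 1. The median over the 8 subunits ran from 0.0014 to 0.05. Over all genes DESeq2 called 8, and leaving out 1 replicate gave 0 to 1. The median log2 fold change over all genes was 0.0066 with TMM, −0.0066 with RLE and 0.012 with upper-quartile scaling. Values near 0 changed sign. Cct5 turned to 0.0014 with upper-quartile scaling and to 0.013 with the replicate block, and leaving out 1 replicate gave −0.034 to 0.012, with 0.012 without circNrxn3 siRNA replicate 2 and 0.0097 without replicate 4. Cct4 turned to 0.011 without circNrxn3 siRNA replicate 1, to 0.021 without scrambled replicate 3 and to 0.0021 without scrambled replicate 4 (range −0.048 to 0.021). Tcp1 turned to −0.0098 with the replicate block. The cause of these changes was not tested. The 5 neighbouring pairs of levels that differed stayed 5 in the 9 alternatives run, which could not have turned out otherwise. A gene higher in 8 of 8 libraries stays higher when 1 is left out. CPM per kb has the same ratios within a library as FPKM. CPM per kb gave the order of the FPKM by construction, and in the circNrxn3 siRNA libraries alone 27 of 28 pairs of subunits kept it, Cct2 standing above Cct4. In 4 libraries alone this test cannot pass, so neighbours were not tested there. Counting error was at most 2.32% of a subunit value, and 4 animals per group limit the precision of the group comparison.

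Numbers 1, 3 and 4 occur in both groups. Deviations from group means of same-numbered libraries correlated across genes at 0.369, 0.299 and 0.0866, and 5 of 6 samples correlated best with their own number, a hint from the data and not the design. In the replicate block fit only these numbers bear on the group difference. The libraries of circNrxn3 siRNA replicate 2 and scrambled replicate 5 add nothing to it there, so its values rest on fewer animals than the main fit. With the replicate block 0 genes and 0 subunits were called, the median over the subunits was 0.0014 and Cct2 had 0.33 (edgeR adjusted p = 0.337).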
